A study of Mus musculus with 120 samples.

Results

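The genes described here are the olfactory receptor genes (symbols beginning Olfr) and the vomeronasal receptor genes (Vmn1r and Vmn2r) that had a differentially methylated window close by. They were chosen by the study's own calls: a gene was taken when at least 1 called window overlapped its body or lay within 10 kb of it. Of 2073 such receptor genes in the RefSeq annotation of mm10, 144 met this rule, 100 of them coding and 44 annotated as pseudogenes. On the autosomes and X this is 7.01% of 2053 receptor genes, beside 18.0% of all 49554 genes there (8926). Together the members drew on 114 of the 8961 windows in the authors' deposited table. The samples were hippocampus and blood of APP-nlgf mice and of wild-type mice, both sexes, taken at postnatal week 3, 8 or 24 and measured by whole-genome bisulfite sequencing. APP-nlgf mice carry a knocked-in App gene with a humanised amyloid-beta sequence and familial Alzheimer mutations, without an added transgene promoter. Each tissue and week had 10 APP-nlgf libraries and 10 wild-type libraries, with 5 of each sex, 120 libraries in all. Strain is not given in the sources used here, and the labels name no further allele. For each tissue and week the authors compared the genotypes with sex as a covariate, which gave 6 lists of called 1 kb windows.

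For each window the authors give how far methylation differed, in percentage points, with raw and adjusted p-values. The sign is taken to be APP-nlgf minus wild-type because the comparison is named that way round, so every "higher" and "lower" would turn round with it. Every window in the table had an adjusted p under 0.1 and a difference of at least 10 points. No methylation level and no single library was analysed here, so no spread between animals stands behind a difference and its depth is unknown. The members were selected on the same comparison that gave their values, so the values below are descriptions and carry no test of their own beyond the authors' adjusted p. In bulk tissue, a change in the mix of cell types and a change within cells cannot be told apart. Receptor genes are close copies of each other, and how reads that fit several copies were handled is not given in the sources used here.

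Olfactory receptors are G protein-coupled receptors through which sensory neurons of the nose detect odorants. Each olfactory neuron expresses a single receptor allele, and the remaining receptor genes stay packed in heterochromatin. Vmn1r and Vmn2r genes encode the pheromone receptors of the vomeronasal organ, where Vmn1r receptors sit with the G protein subunit Gnai2 and Vmn2r receptors, which have a long extracellular domain, with Gnao1. The genes lie in tandem clusters on many chromosomes. Neither hippocampus nor blood is a tissue in which these receptors carry out their sensory role.

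Of the 144 members 84 had a promoter sequence in the RefSeq table for GRCm38.p6, which shares its coordinates with mm10. A called window reached into that stretch, from 250 bases before to 50 after the annotated start, in 5 of them. Many gene models of these families may hold the coding part alone: 55 of 77 coding Olfr members (71.4%) and all 8 coding Vmn1r members have a length that is a multiple of 3, against 36.8% of all 21631 coding genes. In such models the annotated start need not be the site where transcription begins. Vmn1r224 (897 bp), Olfr1168 (939 bp) and Vmn1r167 (948 bp), of the 5 shown here, have a length that is a multiple of 3. So does the longer model of Olfr378 (3441 bp), while that of Olfr1136 (1067 bp) does not. Such a length alone does not show that a model holds only the coding part. The 5 promoters are shown because they are those that a called window reached. In 4 of them the window holds the annotated start, and at Olfr1136 it begins 54 bp before it. Capitals mark their CpG dinucleotides, the sites at which methylation is mostly found. They are RefSeq sequence, 5′ to 3′ on the gene's strand. Olfr378 lies at chr11:73428428-73428727 on the minus strand, Olfr1136 at chr2:87693898-87694197 on the minus strand and Vmn1r224 at chr17:20418913-20419212 on the plus strand. Olfr1168 lies at chr2:88184629-88184928 on the plus strand and Vmn1r167 at chr7:23505540-23505839 on the minus strand.
Olfr378: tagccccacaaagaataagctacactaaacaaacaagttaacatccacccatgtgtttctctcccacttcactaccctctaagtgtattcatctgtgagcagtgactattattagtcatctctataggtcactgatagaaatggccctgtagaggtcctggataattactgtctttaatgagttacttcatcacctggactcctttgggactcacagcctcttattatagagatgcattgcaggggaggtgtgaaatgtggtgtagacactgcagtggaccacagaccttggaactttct
Olfr1136: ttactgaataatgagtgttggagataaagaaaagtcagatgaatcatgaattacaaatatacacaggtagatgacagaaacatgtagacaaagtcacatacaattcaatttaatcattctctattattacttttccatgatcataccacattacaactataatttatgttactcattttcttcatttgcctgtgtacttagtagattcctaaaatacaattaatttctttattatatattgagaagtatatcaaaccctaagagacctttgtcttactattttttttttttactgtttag
Vmn1r224: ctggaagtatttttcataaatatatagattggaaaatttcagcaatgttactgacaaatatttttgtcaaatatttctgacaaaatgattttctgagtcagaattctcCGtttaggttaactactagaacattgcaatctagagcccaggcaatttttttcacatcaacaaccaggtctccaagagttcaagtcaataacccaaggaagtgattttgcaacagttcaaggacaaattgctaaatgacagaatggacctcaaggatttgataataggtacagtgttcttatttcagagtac
Olfr1168: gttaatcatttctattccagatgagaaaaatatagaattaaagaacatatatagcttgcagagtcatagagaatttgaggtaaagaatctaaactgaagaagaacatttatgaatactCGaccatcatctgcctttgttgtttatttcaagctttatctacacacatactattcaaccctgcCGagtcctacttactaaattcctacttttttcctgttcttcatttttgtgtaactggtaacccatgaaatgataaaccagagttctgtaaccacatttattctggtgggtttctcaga
Vmn1r167: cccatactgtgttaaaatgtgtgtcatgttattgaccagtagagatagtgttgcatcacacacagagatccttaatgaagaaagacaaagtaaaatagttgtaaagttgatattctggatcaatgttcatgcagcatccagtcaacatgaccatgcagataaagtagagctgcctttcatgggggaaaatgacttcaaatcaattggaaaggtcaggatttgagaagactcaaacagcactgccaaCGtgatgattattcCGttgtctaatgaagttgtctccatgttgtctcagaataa

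Olfr378 and Olfr1136 have 0 CpG in these 300 bases, Vmn1r224 has 1, and Olfr1168 and Vmn1r167 have 2 each. The windows cover all 300 bases at Olfr378, Olfr1168 and Vmn1r167, 212 at Vmn1r224 and 197 at Olfr1136. Any CpG in the windows of Olfr378 and Olfr1136 therefore lies outside the stretch shown. In the authors' deposited table Olfr378 was 20.2 points lower in APP-nlgf blood at week 3 (-20.2, adjusted p = 0.0430). Vmn1r224 stood at 27.8 points, higher in APP-nlgf hippocampus at week 8, in the authors' deposited table, with an adjusted p of 0.0999, the weakest of the receptor windows there. Olfr1168 was also higher in that list, at 19.997 points (adjusted p = 0.0648) in the authors' deposited table. Olfr1136 was at -17.2 points in hippocampus at week 3 (adjusted p = 0.0302), and Vmn1r167 at -13.2 points in blood at week 8 (adjusted p = 0.0508), both lower in APP-nlgf in the authors' deposited table. Of the 4 windows that hold a start 2 were higher and 2 lower, and the window just before Olfr1136 was lower.

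Receptor genes had a window less often than genes at large in each of the 6 lists, and their windows were sparse where the table was fullest. In hippocampus 25 of the 2053 receptor genes on the autosomes and X had a window at week 3 (1.22%), beside 1.79% of all 49554 genes. At week 8 there were 13 (0.633%), beside 1.29% of all genes, and at week 24 there were 18 (0.877%), beside 1.66%. In blood 26 receptor genes had a window at week 3 (1.27%), beside 1.97% of all genes. At week 8 there were 47 (2.29%), beside 12.3% of all genes, and at week 24 there were 18 (0.877%), beside 0.940%. Because having a window is what chose the members, nothing further is read from these shares. Olfr genes are also short, with a median of 945 bp, and whether gene length bears on these shares was not tested. The stretch within 10 kb of a receptor gene covers 40120 of 2630953 grid windows, 1.52% of the autosomes and X, and held 1.27% of the placed windows.

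Counted per length, receptor surroundings held fewer windows than the rest of the genome in blood at week 8 and, by a little, in hippocampus at week 8, and more in the other 4 lists. In that list there were 8.72 called windows per 10000 grid windows within 10 kb of a receptor gene and 17.3 elsewhere. Around zinc finger Zfp genes, another large family in tandem clusters, the figure was 27.1. Over the other 5 lists receptor surroundings had 19.7 called windows per 10000 grid windows and the rest of the genome 16.8. By list these were 4.24 near receptors and 3.88 elsewhere in hippocampus at week 3, 2.49 and 2.82 at week 8, and 4.24 and 3.60 at week 24. In blood they were 5.23 near receptors and 4.36 elsewhere at week 3, and 3.49 and 2.13 at week 24. Near Zfp genes the figures in hippocampus were 2.42 at week 3, 1.94 at week 8 and 2.42 at week 24. In blood the Zfp figures were 5.33 at week 3 and 1.94 at week 24. The number of grid windows with enough reads to be tested is unknown, near receptors and elsewhere.

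**Figure D1:**
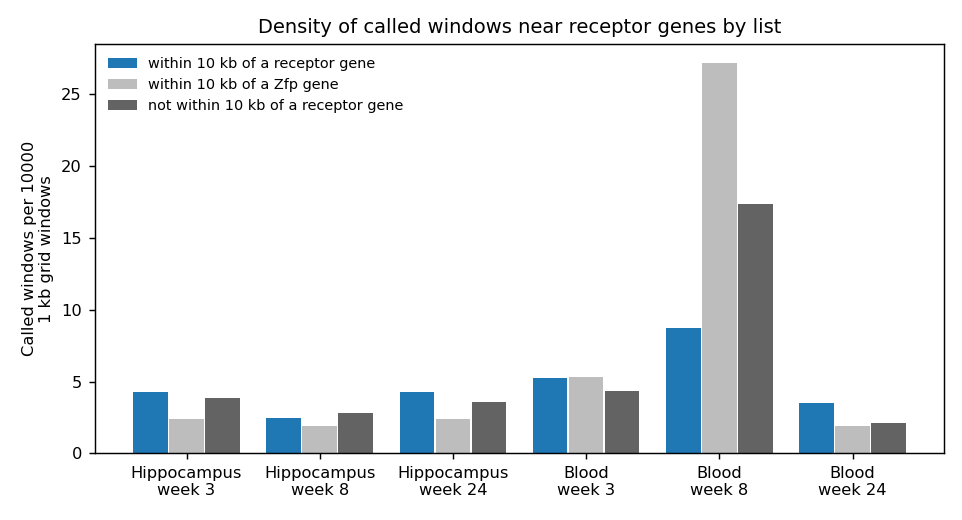
Called windows per 10000 windows of the 1 kb grid (y axis) in each of the 6 tissue and week lists (x axis), within 10 kb of a receptor gene (blue), within 10 kb of a Zfp gene (light grey) and in the rest of the genome away from receptors (dark grey). Blood at week 8 stands apart, with 8.72 near receptors, 27.1 near Zfp genes and 17.3 away from receptors.

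The direction of the receptor windows turned with the limits set in 4 of the 6 lists, and held its side under each of them in blood at week 8. At week 3 in hippocampus 4 receptor windows were higher and 13 lower in APP-nlgf, 23.5% higher (exact 95% Clopper-Pearson interval 6.81 to 49.9), beside 29.5% of the whole list. Among the 5 of these windows that overlapped a gene body the balance turned, with 60.0% higher. At week 8 the receptor windows were split, 5 higher and 5 lower (50%, 18.7 to 81.3), beside 54.6%. At week 24 there were 9 higher and 8 lower (52.9%, 27.8 to 77.02), beside 58.6%, and with an adjusted p under 0.05 the share higher was 28.6% of 7 windows. Blood at week 3 had 9 higher and 12 lower (42.9%, 21.8 to 66.0), where 63.2% of the whole list was higher. From 15 points up the share there was 56.2% of 16 windows, and without receptor pseudogenes 50% of 14. Blood at week 8 had 7 higher and 28 lower (20%, 8.44 to 36.9), beside 11.1%. Blood at week 24 had 10 higher and 4 lower (71.4%, 41.9 to 91.6), beside 82.5%, and with an adjusted p under 0.05 the share was 25.0% of 4 windows. The share over the whole list lay within the receptors' interval in all 6 lists, and these intervals cover counting error over windows, not differences between animals.

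Receptor windows had a larger median difference than the list they came from in all 6 lists, though not in each direction. Their median absolute difference was 16.8 points over all 114 windows, beside 12.6 points over the 8961. In hippocampus the median was 19.9 points near receptors at week 3, 21.8 at week 8 and 17.3 at week 24, beside list medians of 13.8, 13.5 and 14.0 points. In blood it was 18.8 points at week 3, 13.6 at week 8 and 14.4 at week 24, beside 14.9, 11.7 and 14.0 points. The 95% interval of the median in blood at week 24, 11.9 to 22.0 points, takes in the list median. In hippocampus at week 3 the 5 windows overlapping a gene body had a median of 12.8 points, under the list median. Among lower windows the receptor median was the larger in all 6 lists. Among higher windows it was the smaller in hippocampus at week 3, at 11.9 points beside 13.95, and in blood at week 8, at 11.8 points beside 12.96. In blood at week 24 the higher windows had medians of 13.95 points near receptors and 13.93 in the list. A difference of at least 20 points was found in 36 of the 114 receptor windows (31.6%), against 794 of all 8961 (8.86%). Outside blood at week 8 the counts were 33 of 79 (41.8%) near receptors, against 645 of 4435 (14.5%). The adjusted p was under 0.01 in 7 receptor windows (6.14%), against 2178 windows of the whole table (24.3%), most of those in blood at week 8. Outside that list it was under 0.01 in 4 of 79 receptor windows (5.06%), against 315 of 4435 (7.10%). In blood at week 3 alone the receptors had the larger share, 14.3% (3 of 21 windows) against 9.11% under 0.01 and 61.9% against 49.7% under 0.05. In hippocampus the share under 0.05 was 23.5% against 36.1% at week 3, 20% against 29.6% at week 8 and 41.2% against 44.6% at week 24. In blood it was 45.7% against 71.1% at week 8 and 28.6% against 36.9% at week 24. Coverage and the number of CpGs per window, which bear on both size and adjusted p, were not analysed here.

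**Figure D2:**
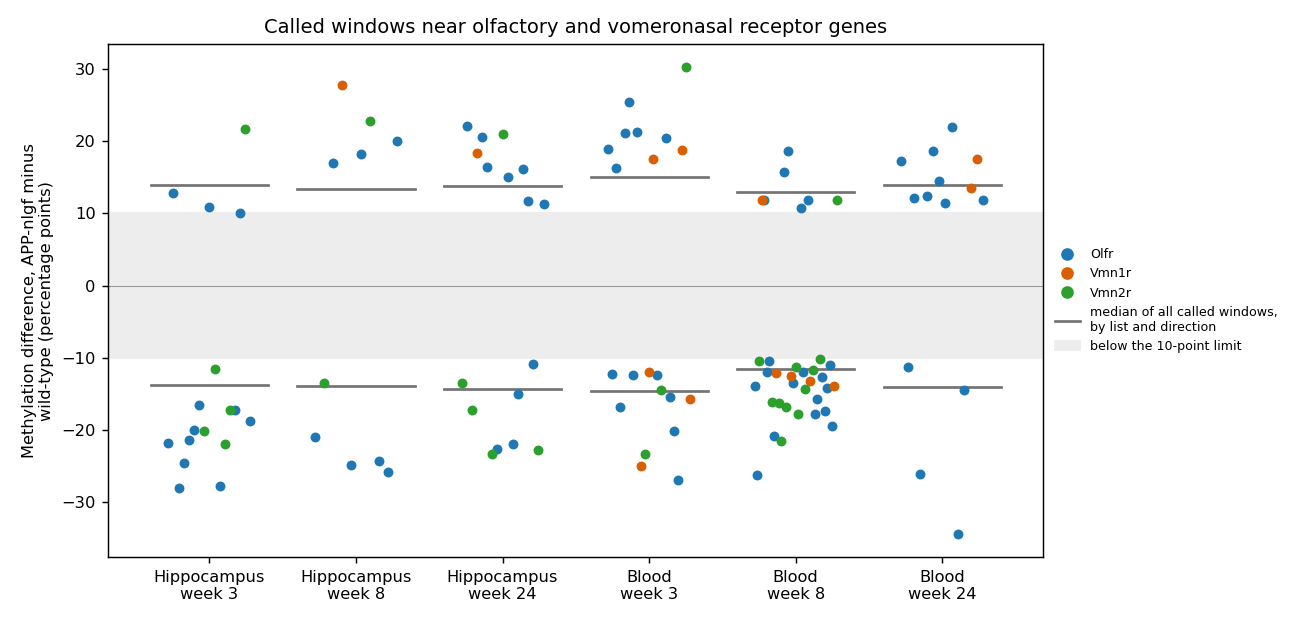
Methylation difference of each called window near a receptor gene in percentage points (y axis, APP-nlgf minus wild-type) in the 6 lists (x axis), coloured by family, with grey lines at the median of all called windows of the same list and direction and grey shading where no window can be called. Lower receptor windows in hippocampus at week 3 run from -11.5 to -28.0 points, with a median of -20.2 beside -13.8 for the list.

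In hippocampus at week 3 the lower windows were the larger ones. The lowest was 4.14 kb from Olfr809 and 8.65 kb from Olfr810 (chr10:129781001-129782000), at -28.0 points in the authors' deposited table (adjusted p = 0.0209). It ranked 11 of 722 lower windows of that list by size. Next came -27.7 points 16 bp from the pseudogene Olfr1492-ps1 (chr19:13717001-13718000) and -24.5 points 2.05 kb from Olfr697, in the authors' deposited table. Vmn2r114 held a lower window inside its body at -22.0 points in the same table of the authors. Olfr393, with a window 185 bp away, was at -21.8 points and Olfr295, 277 bp away, at -18.8 points by the authors' deposited table. Only 4 receptor windows were higher. Vmn2r5 held the highest, at 21.7 points, and the other 3 did not pass 13 points in the authors' deposited table. One of these 3 overlapped Olfr1393, a receptor also described in the mouse kidney, and lay 297 bp from Olfr1392, at 12.8 points by the authors' deposited table.

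In hippocampus at week 8 both directions reached over 24 points. After Vmn1r224, the highest windows were inside the pseudogene Vmn2r-ps17 (22.8 points) and at Olfr1168 in the authors' deposited table. The lowest window lay inside Olfr91 (chr17:37113001-37114000), at -25.8 points, and a second window inside the same gene, 5 kb on, was at 17.0 points in the authors' deposited table. Olfr91 is thus a gene with windows of both signs in a single list, and has no direction as a whole. Olfr1505, 1.03 kb from its window, was at -24.9 points with the smallest adjusted p of the receptors in this list (0.0336) in the authors' deposited table. Olfr733 stood at -24.3 points (adjusted p = 0.0430) in the authors' deposited table, with its window 4.34 kb away.

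In hippocampus at week 24 the most positive window was 813 bp from Olfr370 (chr8:83543001-83544000), a receptor gene that lies apart from any cluster, at 22.1 points in the authors' deposited table. Vmn2r17 held a window inside its body at 21.01 points and Olfr110, 3.33 kb from its window, was at 20.6 points, both by the authors' deposited table. On the other side, Vmn2r79 was at -23.3 points and the pseudogene Vmn2r-ps69 at -22.8 points, both with the window inside the gene, in the authors' deposited table. Olfr1246 was at -22.6 points with a window 69 bp away (adjusted p = 0.0207) in the authors' deposited table. Olfr151, listed as M71 among its synonyms and annotated here as a transcribed pseudogene, was at -21.9 points in the authors' deposited table. Among these receptor windows the smallest adjusted p, 0.00463, belonged to a window 6.86 kb from Vmn2r-ps34 at -17.3 points by the authors' deposited table.

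In blood at week 3 the highest receptor window of all lists lay inside Vmn2r92 (chr17:18161001-18162000), at 30.2 points in the authors' deposited table (adjusted p = 0.0873). Olfr119 followed at 25.4 points and Olfr1280, whose body the window overlapped, at 21.2 points by the authors' deposited table. The lowest windows were -27.0 points near Olfr634-ps1, -25.0 points inside Vmn1r90 and -23.3 points inside Vmn2r-ps69 in the authors' deposited table. The Vmn1r90 window also overlapped Nlrp5-ps, so it is not the receptor's alone. The smallest adjusted p did not go with the largest differences here. Olfr876 was at -12.4 points with an adjusted p of 0.00110 (rank 18 of 1153), and Olfr195 at 19.0 points with 0.00258, in the authors' deposited table.

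In blood at week 8, the fullest list, receptor windows were mostly lower and modest in size. Olfr769 was the exception in size, at -26.3 points (chr10:129107001-129108000) in the authors' deposited table. Vmn2r-ps47 followed at -21.5 points and the pair Olfr1053 and Olfr1052 at -20.8 points in the authors' deposited table. None of the 7 higher windows passed 19 points, and the highest, at 18.7 points, lay over 8 kb from both Olfr3 and Olfr50 in the authors' deposited table. Over all receptor windows the smallest adjusted p, 4.50e-05, belonged to a window 9.11 kb from Vmn2r-ps53 at -16.3 points in the authors' deposited table. That window lies inside Zfp606, a zinc finger gene. A window inside Vmn2r-ps15 at -10.2 points (adjusted p = 0.000947) came next in the authors' deposited table. It also overlaps Gm13244. Of the 35 receptor windows in this list 1 was within 1 kb of either end of a non-receptor coding gene.

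In blood at week 24 the largest difference of any receptor window lay 3.14 kb from Olfr112 (chr17:37559001-37560000), which the authors' deposited table gives as -34.4 points (adjusted p = 0.0293). It ranked second in size, 2 of the 99 lower windows of a list that was otherwise mostly higher. Olfr681, 4.46 kb from its window, was at -26.0 points (adjusted p = 0.0342), and Olfr259 at -14.5 points, in the authors' deposited table. Olfr58 led the higher windows at 22.0 points, followed by Olfr387-ps1 at 18.6 points and Vmn1r-ps46 at 17.6 points in the authors' deposited table. Olfr1088-ps1, at 12.4 points, had the smallest adjusted p, given as 0.0256 in the authors' deposited table. No Vmn2r gene had a window within 10 kb in this list. Vmn2r28 (10.15 kb, 18.3 points) and Vmn2r-ps102 (10.3 kb, 13.7 points) fell just outside that limit in the authors' deposited table.

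A cluster was taken as a run of receptor genes in which neighbours are at most 1 Mb apart, which gave 111 clusters including 42 lone genes. Of these 36 had a window, and none had windows in all 6 lists. The 8 clusters with 5 or more windows held 55 of the 114 windows (48.2%) and 45.4% of the receptor genes. Among the 34 clusters of at least 10 genes the share of genes with a window had a median of 6.52% and reached 24.0%, and 5 of them had no window. Those 5 lie on chromosomes 1, 4, 11, 13 and 15 and hold 26, 15, 26, 15 and 12 receptor genes.

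**Figure D3:**
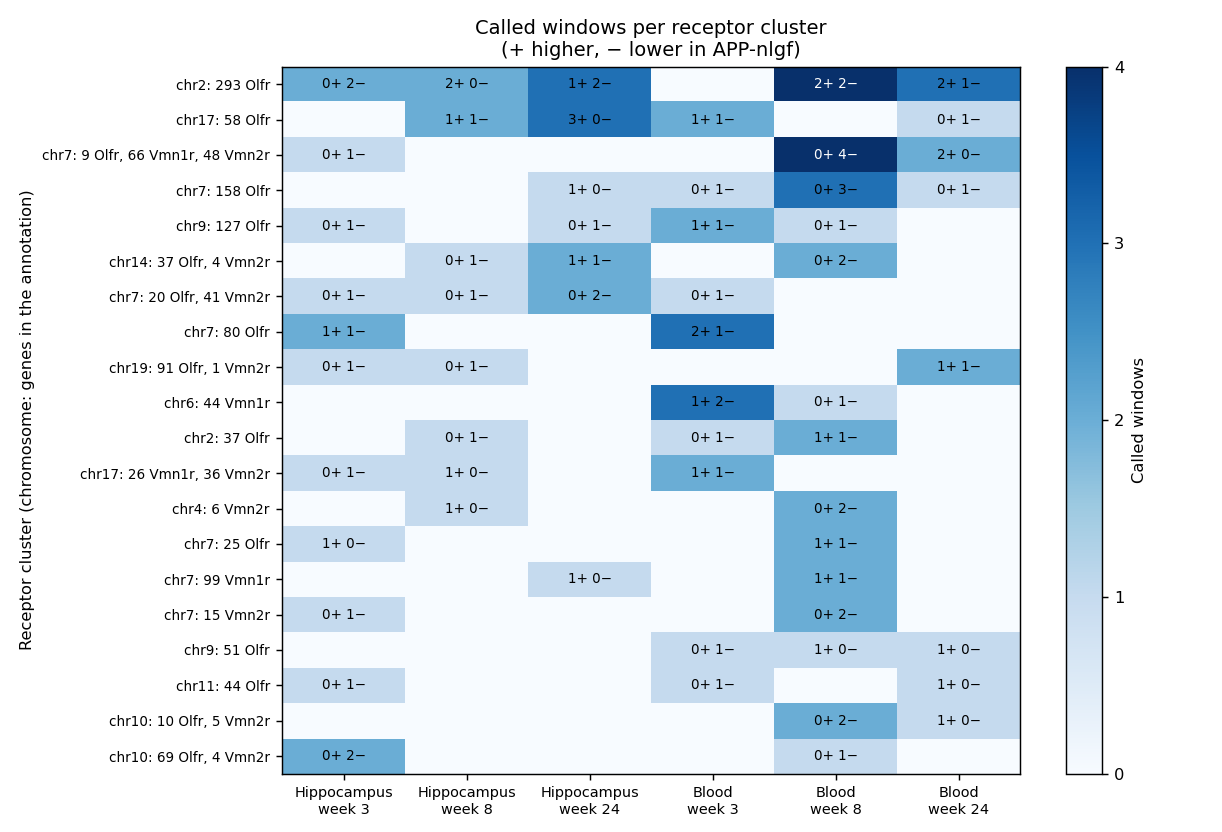
Number of called windows (colour) in each receptor cluster with 3 or more windows (rows, named by chromosome and the receptor genes they hold) and each list (columns), with the numbers higher (+) and lower (−) in APP-nlgf written in the cells. The chromosome 2 cluster of 293 Olfr genes leads with 14 windows, and the chromosome 7 cluster of 20 Olfr and 41 Vmn2r genes has 5 windows in 4 lists, all lower.

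The largest cluster, 293 Olfr genes around 87.9 Mb of chromosome 2, had 14 windows at 17 genes, 7 higher and 7 lower. Its windows ranged from -22.6 points at Olfr1246 to 19.997 points at Olfr1168 in the authors' deposited table. The higher ones were at Olfr1002, Olfr1048, Olfr1088-ps1, Olfr1168, which had 2, Olfr1245 and Olfr1274. Olfr1023, Olfr1052 with Olfr1053, Olfr259, Olfr1113, Olfr1136, Olfr1246 and Olfr1272 had the lower ones. Olfr1245 and Olfr1246 are neighbours whose windows lay 16 kb apart and went opposite ways, at 12.1 points in blood and -22.6 points in hippocampus, both at week 24, in the authors' deposited table.

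The Olfr cluster around 37.7 Mb of chromosome 17, next to the major histocompatibility complex, was the densest of the 8, with 80.9 called windows per 10000 grid windows beside 28.4 over all receptor surroundings. Its 8 windows, 5 higher and 3 lower, held the lowest window of the whole set, at Olfr112, and one of the highest, at Olfr119. In hippocampus at week 24 all 3 of its windows were higher, at 20.6 points for Olfr110, 16.5 for Olfr121 and 16.1 for Olfr138 in the authors' deposited table. Its remaining members were Olfr91, Olfr92 and Olfr122, the last at -16.8 points in blood at week 3 in the authors' deposited table.

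Chromosome 7 carried 8 of the clusters with a window, mixed in content. Around 9.2 Mb, 66 Vmn1r, 48 Vmn2r and 9 Olfr genes had 7 windows. There the 5 windows at Vmn2r genes were all lower, from -11.3 to -21.5 points, at Vmn2r-ps47, Vmn2r48, Vmn2r50, Vmn2r-ps53 and Vmn2r56 in the authors' deposited table. Both Vmn1r windows, at Vmn1r-ps46 and Vmn1r81, were higher, and both were in blood at week 24. Around 85.9 Mb, 5 windows in 4 lists were all lower, from -13.5 to -23.3 points, at Vmn2r-ps69 (2 windows), Vmn2r-ps82 with Vmn2r-ps83, Olfr295 and Vmn2r79, in the authors' deposited table. Around 42.2 Mb the Vmn2r genes Vmn2r57, Vmn2r59 and Vmn2r63 had 3 lower windows. The window counted for Vmn2r57 lay inside the coding gene AI987944, 7732 bp from Vmn2r57. On chromosome 10, around 129.7 Mb, 3 windows at Olfr769, Olfr809 with Olfr810, and Olfr822 were likewise all lower, from -19.9 to -28.0 points in the authors' deposited table. These single-direction clusters were picked out after their values were seen.

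The class I olfactory receptors, the family shared with fish, lie mostly in a cluster around 103.9 Mb of chromosome 7, which holds 149 of the 162 genes so named. Of the cluster's 158 genes 9 had a window, and of its 6 windows 5 were lower. Olfr634-ps1 and Olfr681 had large differences, at -27.0 and -26.0 points in blood at weeks 3 and 24, in the authors' deposited table. Olfr655, the pair Olfr665 and Olfr666 and the pair Olfr677 and Olfr678 were at -11.0 to -13.9 points in blood at week 8 in the authors' deposited table. Olfr687 had the higher window, at 15.0 points in hippocampus at week 24 in the authors' deposited table. By the MOR names among their synonyms, 7 of 162 class I genes were members (4.32%), against 79 of 1130 class II genes (6.99%), a difference that was not tested. Another 136 Olfr genes have no MOR name and so no class here. Of these 14 were members (10.3%), among them Olfr681 and Olfr687 of this cluster.

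Further Olfr clusters of chromosome 7 and those of chromosomes 9 and 14 had windows of both signs. Around 107.8 Mb of chromosome 7, Olfr704 with Olfr705 (20.4 points) and Olfr496-ps1 (21.1 points) were higher and Olfr512 (-12.4 points) lower in blood at week 3 in the authors' deposited table. Olfr490 held a window of 10.04 points in hippocampus at week 3, the smallest of the set and just past the 10-point limit, in the authors' deposited table. Around 140.4 Mb, where 6 of 25 genes were members, Olfr533 was at 15.8 points and Olfr537-ps1 at -10.4 points in blood at week 8 in the authors' deposited table. A window at 10.9 points within reach of Olfr53, Olfr539 and Olfr540-ps1, in hippocampus at week 3, counted for all 3 in the authors' deposited table. On chromosome 9, around 38.9 Mb, Olfr145 was at 16.3 points in blood at week 3 and the pair Olfr940-ps1 and Olfr941-ps1 at -21.4 points in hippocampus at week 3 in the authors' deposited table. On chromosome 14 Olfr724 and the pair Olfr745 and Olfr746 were lower in blood at week 8, at -17.8 and -12.0 points in the authors' deposited table. Olfr726 was at 11.3 points there in hippocampus at week 24 in the authors' deposited table.

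The remaining clusters had 1 to 4 windows each. On chromosome 19 Olfr1437 was at 17.2 points and the overlapped Olfr1458 at -11.2 points in blood at week 24 in the authors' deposited table. On chromosome 2 around 36.8 Mb the lower windows were at Olfr342 with Olfr343-ps1 (-20.9 points, hippocampus at week 8), at Olfr360 and Olfr361 (-15.4 points, blood at week 3) and again at Olfr361 (-13.6 points, blood at week 8) in the authors' deposited table. A cluster of 44 Vmn1r genes around 57.7 Mb of chromosome 6 had windows in blood alone, all at pseudogenes. They were Vmn1r-ps8 at 18.8 points, Vmn1r-ps11 at -12.0, Vmn1r-ps17 at -15.8 and Vmn1r-ps13 at -14.0 points in the authors' deposited table. On chromosome 11 Olfr1383 with Olfr1382 stood at 14.4 points in blood at week 24 in the authors' deposited table. Elsewhere Vmn1r54 was at 17.5 points in blood at week 3, Vmn1r157 at 18.4 points in hippocampus at week 24 and Vmn1r171 at 11.9 points in blood at week 8 in the authors' deposited table. In a cluster of 6 Vmn2r genes on chromosome 4, the pseudogenes Vmn2r-ps15 and Vmn2r-ps18 were lower in blood at week 8 and Vmn2r-ps17 higher in hippocampus at week 8.

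By family, 100 of 1428 Olfr genes (7.003%), 17 of 373 Vmn1r genes (4.56%) and 27 of 272 Vmn2r genes (9.93%) were members, beside 18.0% of all genes. The Vmn2r totals in this paragraph, and those over all receptors, include the 20 receptor genes on Y, all Vmn2r and none a member. The 18.0% is over the autosomes and X alone. Vmn2r genes are the long ones, with a median of 15637 bp against 945 bp for Olfr and 921 bp for Vmn1r. A longer gene can take in more windows, and whether length bears on these shares was not tested. Among the 26 windows at Vmn2r genes 5 were higher and 21 lower, among the 74 at Olfr genes 32 and 42, and among the 14 at Vmn1r genes 7 and 7. Of the Vmn2r windows 11 came from blood at week 8, where 10 were lower, and the other lists had 4 higher and 11 lower. Of coding receptors 100 of 1465 were members (6.83%), and of pseudogenes 44 of 608 (7.24%), but the families went different ways. In Vmn1r 3.46% of coding genes and 6.34% of pseudogenes were members, in Vmn2r 12.1% and 8.11%, and in Olfr 6.94% and 7.23%. None of these differences was tested.

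Of the 144 members 3 had windows in more than 1 list (2.08%), beside 820 of all 8926 genes with a window (9.19%). Without blood at week 8 the counts were 2 of 98 members (2.04%), beside 255 of 3486 genes (7.31%). Hippocampus windows fell at 55 receptor genes and blood windows at 90, with 1 gene in both tissues (0.694% of members), beside 538 of all genes with a window (6.03%). Longer genes can take in more windows, and these shares were not tested. The gene with windows in both tissues was the pseudogene Vmn2r-ps69, lower in hippocampus at week 24 (-22.8 points) and, 1 kb away, lower in blood at week 3 (-23.3 points), in the authors' deposited table. Within a tissue, Olfr1168 was higher in hippocampus at weeks 8 and 24, at 19.997 and 11.7 points in windows 5 kb apart, in the authors' deposited table. Olfr361 was lower in blood at weeks 3 and 8, at -15.4 and -13.6 points in windows 12 kb apart, in the authors' deposited table. Its week 3 window lay inside the non-receptor gene Gm13437, 8.78 kb from Olfr361 and nearer to Olfr360. In Vmn2r-ps69, Olfr1168 and Olfr361 the lists shared the sign, and no receptor window was called at the same position in more than 1 list. Among all windows 18 positions were called in more than 1 list. The libraries of different weeks are different samples, while hippocampus and blood may come from the same animals, which the labels do not state.

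Windows lay both in and beside the genes. Of the 114 windows 32 overlapped a receptor body (28.1%), 9 lay within 1 kb, 49 at over 1 to 5 kb and 24 at over 5 to 10 kb. Per 10000 grid windows at each distance this is 31.7 in the body, 22.4 within 1 kb, 34.5 at 1 to 5 kb and 20.3 beyond. The direction was mixed at every distance, with 14 higher and 18 lower in the body and 8 higher and 16 lower at over 5 to 10 kb. A window was near 2 or more members in 33 cases, so the gene counts above exceed the window counts. In 8 cases the window also overlapped a gene that is no receptor, among them the coding genes Zfp606, Gm7247 and AI987944, and in 10 cases another gene was nearer than any receptor. At the limit of 10 kb, Vmn1r-ps101 (9.57 kb, -12.2 points) and Olfr682-ps1 (9.37 kb, -26.0 points) were just inside in the authors' deposited table. Olfr452 (10.04 kb, 11.9 points) and Vmn1r-ps138 (10.04 kb, -17.9 points) fell just outside in the authors' deposited table.

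**Figure D4:**
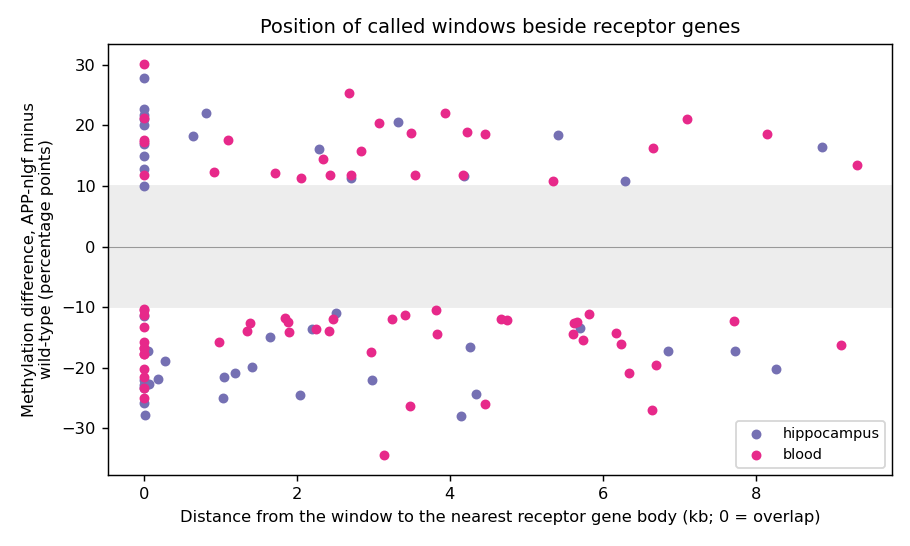
Methylation difference of each receptor window in percentage points (y axis, APP-nlgf minus wild-type) against its distance in kb from the nearest receptor gene body (x axis, 0 for an overlap), for hippocampus and blood. Higher and lower windows occur over the whole range of distances, and the lowest, at -34.4 points, lies 3.14 kb from its gene.

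The 300 bases at the annotated start of receptor genes, called promoters here, hold few CpGs whether or not a window was called nearby. In many receptor models that start need not be where transcription begins. The comparison with other coding genes may therefore set unlike stretches side by side. The 84 member promoters had a median of 1 CpG in 300 bases (0 to 6) and 31 of them (36.9%) had none, while the 1188 promoters of receptor genes without a window also had a median of 1 and 30.6% had none. Promoters of coding genes that are no receptors had a median of 14, and 2.95% had none. The GC content had a median of 35.8% in member promoters and 57.3% in those of other coding genes. The member promoters with most CpGs were those of Olfr370 and Vmn1r54, with 6 each, and Olfr681, with 5.

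**Figure D5:**
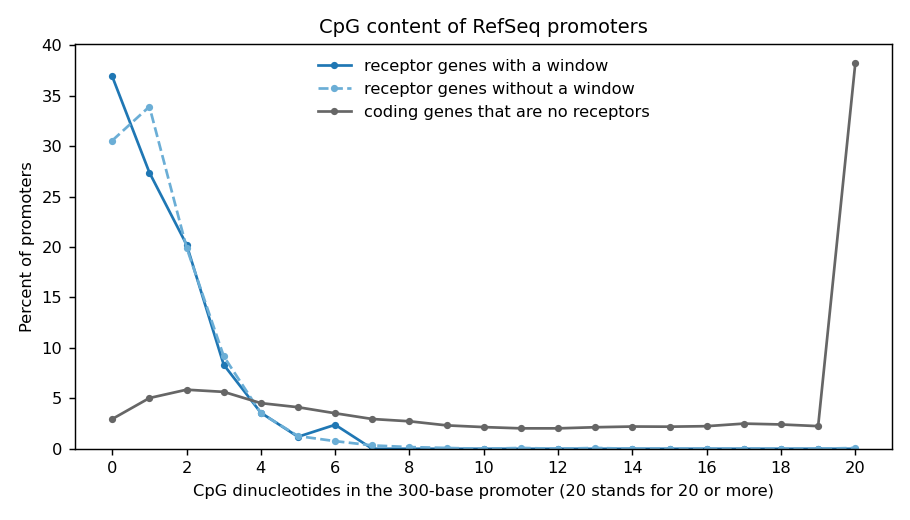
Share of RefSeq promoters in percent (y axis) by the number of CpG dinucleotides in their 300 bases (x axis, 20 standing for 20 or more), for receptor genes with a window, receptor genes without one and coding genes that are no receptors. Both receptor curves lie near 0 to the right of 6 CpGs, with a median of 1, beside a median of 14 for other coding genes. The bases are those at the annotated start, which in many receptor models need not be where transcription begins.

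A few short motifs known from olfactory receptor promoters were searched on both strands of the same 300 bases. For receptor models that hold the coding part alone, these bases need not be the promoter. TAATTA, a homeodomain core, was in 10 of the 84 member promoters (11.9%), in 16.9% of receptor promoters without a window and in 5.29% of all 32851 promoters. CCCNNGGG, the core of the site bound by EBF factors, was in 4 member promoters (4.76%), in 4.12% of the other receptor promoters and in 13.7% of all. TATAAA was in 37 (44.0%), 39.2% and 13.6% in the same order. Matches of different motifs may share bases, and a match is only a run of letters. Of the 5 promoters shown above, Olfr378 holds TAATTA, and no other match was found in them.

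Genes that work with the receptors were looked at from a list chosen beside them, and each count below stands beside the 18.0% of all genes with a window in any list. Of 20 genes of olfactory transduction 5 had a window, all in blood at week 8, beside the 12.3% of genes with a window there. All 5 genes had a lower window, in a list where 88.9% of all windows were lower. They were the channel subunit Cnga4 (-12.2 points), Arrb2 (-10.2), Pde4a (-11.7), Gnb1 (-11.2) and Reep1 (-10.3 points) in the authors' deposited table. Gnal, Adcy3, Cnga2 and Omp, which mark olfactory neurons, had none. Of 17 regulators of receptor choice 4 had windows, 9 in all with 2 higher and 7 lower. Blood at week 8 gave 4 of the 9, and 66.9% of all windows in the 6 lists were lower. Ebf3, a transcription factor of the EBF family, was at -10.5 points in hippocampus at week 3, at 13.0 points in blood at week 3 and at -13.1 points in blood at week 8 in the authors' deposited table. Ebf2 was at -14.7 points in hippocampus at week 8, -10.7 points in blood at week 8 and 10.3 points in blood at week 24 in the authors' deposited table. Ldb1, a cofactor of LIM homeodomain proteins, and Ddit3 were lower in blood at week 8, at -11.2 and, in its 2 windows, -10.1 and -11.2 points in the authors' deposited table.

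Of 9 genes of vomeronasal transduction and identity, Tfap2e was at -13.6 points in hippocampus at week 3 and Bcl11b at -11.1 points in blood at week 8 in the authors' deposited table. Among other chemosensory receptors, 6 of 43 taste receptor genes had a window, again beside 18.0% of all genes. Tas2r110 was at -18.6 points in hippocampus at week 24, Tas2r117 at 16.1 points in blood at week 24 and Tas2r138 at -13.9 points in blood at week 8 in the authors' deposited table. The Tas1r genes Tas1r1, Tas1r2 and Tas1r3 had theirs in blood at week 8, at -10.2, 11.8 and -11.3 points in the authors' deposited table. Mrgprb13 was at -15.98 points in hippocampus at week 3 and Mrgpra2b at 13.2 points in hippocampus at week 24, 2 of 32 Mrgpr genes, in the authors' deposited table. Gucy2d, of a small set of olfactory neurons, was at -10.5 points in blood at week 8 in the authors' deposited table. No window lay near the 16 trace amine receptor genes, the 5 Fpr-rs genes or the 21 Ms4a genes.

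Chromosome 16, which carries App and hence the knocked-in allele, had 2 receptor windows. Olfr195 lies 25.8 Mb from App and Olfr19 68.3 Mb from it, and both windows were higher in APP-nlgf blood, at 19.0 points at week 3 and 11.4 points at week 24, in the authors' deposited table. No receptor window was called on X, and the 20 receptor genes on Y had none.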

How the data were processed

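Whole-genome bisulfite sequencing was done on hippocampus and blood, and samples were grouped by tissue, genotype and week from their titles. The tools named per the submitters' processing notes are methylKit, Bismark, Trim Galore and FastQC, on build mm10, without versions. The deposited table gives the authors' own p-value, adjusted p-value and methylation difference in percentage points for each called 1 kb window of each comparison across windows of the genome. The coverage filter, the test and the adjustment method were not given in the sources used here. There were 0 columns of per-library values, so depth and its precision are unknown.

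Windows were assigned to every RefSeq gene (GRCm38.p6) that they overlapped or lay within 10 kb of, with Python 3.11.15 and pandas 2.3.3, and the assignment was checked on windows placed at known distances. Grid windows ran from the first base of each chromosome to its last gene or called window, and the 9 windows on unplaced scaffolds were left out of densities. No test was run, since the rule used the same comparison. Intervals of shares are exact Clopper-Pearson at 95%, and 95% intervals of medians run between ordered values. Named genes are the 3 highest, 3 lowest and 2 smallest adjusted p per list, genes with windows in several lists or in the body, examples of the leading clusters (8, since several were tied for the 6 intended), the genes at the 10 kb limit and the chemosensory list. Other names, the 20-point limit, the Zfp comparison and the motifs were added after values were seen. The members, lists and alternatives were chosen with earlier results of these data known.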

Additional observations from a re-analysis of the deposited data

How the results depend on the processing

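Of 187 values recomputed, 150 stayed within 1.5 times of a count or within the 95% interval of a share or median. They include every value without pseudogenes, without windows in other genes or with cluster gaps of 500 kb or 2 Mb. They also include all 19 values with adjacent windows merged and all 19 without chromosome X, which these settings could not change. No receptor window lay on X, and none of the same list and sign lay within the merge gap of 2 kb of each other. The intervals are wide, so a value can shift far and still count as staying. Without pseudogenes 100 of 144 genes were left. The share higher in hippocampus at week 24 was then 75% of 12 windows, beside 52.9% with them. Counting only windows in the gene body left 30 receptor genes, with 5, 5 and 4 windows in hippocampus at weeks 3, 8 and 24 and 7, 8 and 3 in blood. In hippocampus at week 3 it turned the balance, with 60.0% higher and a median of 12.8 points, and at week 8 it gave 80% higher. Limits of 5 kb and 20 kb gave 91 and 243 receptor genes, and 20 kb gave 56 windows in blood at week 8. An adjusted p under 0.05 left 59 genes, with 4, 2 and 7 windows in hippocampus and 13, 16 and 4 in blood. It left 0% higher in hippocampus at week 3 (median 23.3 points), 0% at week 8, 28.6% at week 24 and 25.0% in blood at week 24, and 0 genes with windows in more than 1 list. An adjusted p under 0.01 left 8 genes, with 0, 0 and 1 windows in hippocampus (0% higher at week 24) and 3, 3 and 0 in blood (median 10.8 points at week 8), so the 3 empty lists have no share or median. A limit of 15 points left 86 genes, 56.2% higher in blood at week 3, with 13 windows (median 17.8 points) in blood at week 8 and 6 at week 24. The cause of these shifts was not tested beyond the smaller or larger number of windows each setting keeps. No paired analysis was possible because the table holds no values per library.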
